A study of Mus musculus with 17 samples.

Results

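The livers of mice fed any of 3 oil diets were compared, as one group, with the livers of mice fed the control diet. The comparison uses 5 liver RNAs, each measured on both array types (10 arrays), of 9 RNAs and 17 arrays in the series; the remainder are from hippocampus. The members described are the genes for which the 3 oil values all lay on the same side of both control values. They were sought among bright probe sets, those whose mean over the 5 liver arrays of their chip lay at or above the 75th percentile. The oil and control values did not overlap for 894 of 3269 bright probe sets (27.3%). These probe sets name 531 of 1878 genes, since 610 of the 894 carry a single gene symbol. If diet made no difference, a probe set would still meet this rule with a probability of about 0.2. Meeting the rule therefore does not by itself show a response.

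The mice were males of Rj:NMRI, an outbred stock, kept 10 to a cage and fed purified powdered diets from day 1 until they were killed on the mornings of day 57 or 58. The control liver RNAs (2) came from mice whose diet held neither test oil. The other 3 RNAs, 1 for each diet, came from mice given 1.1% of a fungal oil rich in arachidonate, 1.9% of a fish oil, or both oils at these levels. The base diet, shared by all 4 groups, held milk fat, palm olein, sunflower and soybean oil, and medium chain triacylglycerol oil in varying amount. Food stayed in the cages overnight, so the time since the last meal could be 0 to 6 hours. Each diet was fed to 10 mice, of which 5 were chosen at random for analysis, and the labels do not say how the RNAs were made up from them or whether the control RNAs are separate mice. All p-values below therefore rest on how much these 5 RNAs vary, and that variation could be technical. A cage holds as many mice as a diet group, and cage and diet cannot be told apart.

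Polyunsaturated fatty acids of the diet are known to act on liver transcription in more than one way. They lower the activity of SREBP-1c, a transcription factor that drives genes of fatty acid synthesis, and they are ligands of PPAR-alpha, a nuclear receptor that drives genes of fatty acid oxidation. Both arachidonate and docosahexaenoate, the main long-chain fatty acid of fish oil, belong to this class.

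The arrays hold a pair of chips, called chip A and chip B, and the values are deposited intensities in arbitrary units. Median intensity of the liver arrays was 45 to 48 on chip A and 31 to 32 on chip B, and 19.9% to 34.5% of values were negative, so many dim probe sets lie near background. The source is labelled as liver or hepatocytes, and albumin (Alb) read 12999 and 10590 in the controls and 13138, 13435 and 12501 with fungal, fish and both oils. The ratio of 3-prime to 5-prime Gapdh control probe sets, a measure of RNA integrity, was 1.91 to 2.23 in the controls and 1.89 to 3.26 in the oil RNAs, whose highest value was fish oil on chip B. The part of this ratio in the results below was not tested. From here on, values are given in the order control 1, control 2, fungal oil, fish oil and both oils, and a log2 difference is the mean of the 3 oil RNAs minus the mean of the 2 controls, on log2 of intensities with a floor of 15.

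Of the 3269 bright probe sets, 8 passed the test (0.245%; limma, Benjamini-Hochberg adjusted p under 0.05), 2 rising with oil (0.0612%) and 6 falling (0.184%). At an unadjusted p under 0.05 there were 350, against 163.5 for p-values spread evenly. Leaving out the fish oil RNA gave 17 calls and leaving out control 1 gave 4. Treating each diet as its own group, so that differences among the oils do not enter the error, gave 56 calls (1.71%), of which 20 were higher, 36 lower, and 53 did not overlap; each oil RNA is then assumed to vary as the controls do. For a single gene an exact permutation test cannot go below p = 0.2 (2-sided), since 5 RNAs split into 3 and 2 in 10 ways.

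The non-overlapping probe sets were 492 above both controls (15.1%) and 402 below (12.3%). Most of these differences were small. The mean difference was under 1.5-fold for 415 of the 492 and 319 of the 402, and the median log2 difference was 0.29 among those above and -0.35 among those below, against 0.01 over all bright probe sets. Some entered the bright set through 1 group alone: all 3 oil values were under the threshold in 15 of the 402, and both controls in 35 of the 492. The gap between the nearest oil and control values had a median of 1.08-fold. A gap of at least 1.5-fold was left by 17 probe sets above (0.520%) and 30 below (0.918%). Of these 47, 20 carry no single gene symbol and the remainder name 26 genes. Among the 30 below, the RNA of both oils was the farthest from the controls in 16, fish oil in 8 and fungal oil in 6, and among the 17 above the corresponding numbers were 4, 7 and 6.

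**Figure D1:**
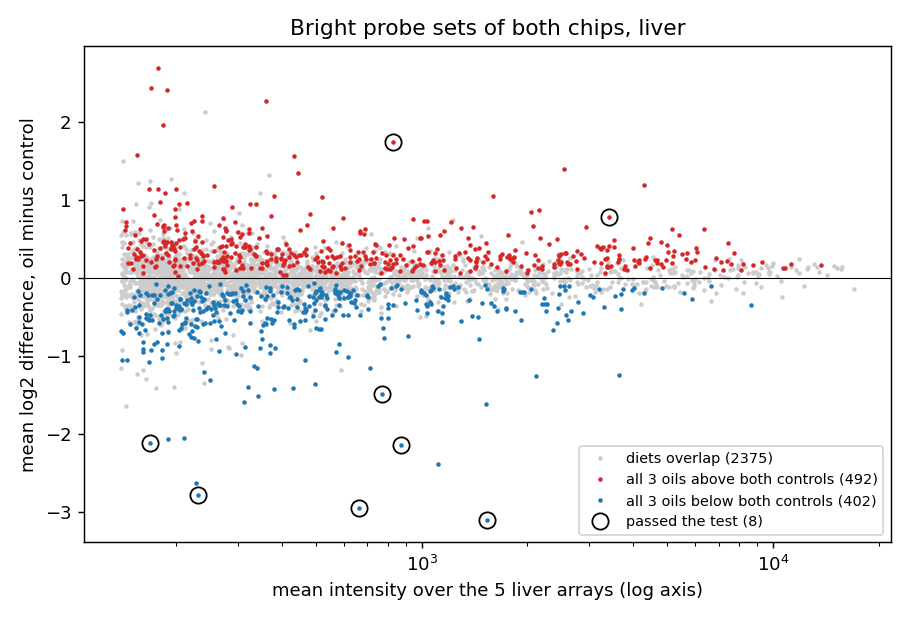
Mean log2 difference (3 oil RNAs minus 2 controls, y axis) against mean intensity over the 5 liver arrays (x axis, log scale) for the 3269 bright probe sets. Red points are the 492 above both controls, blue points the 402 below, grey points those that overlap, and open circles the 8 that passed the test; the lowest point, at -3.10, is Fabp5.

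The strongest named response was a fall of Fabp5, a binding protein that carries fatty acids within the cell and is better known from skin, fat cells and brain than from healthy liver. Fabp5 read 3334 and 3137 in the controls and 593, 384 and 238 with fungal, fish and both oils. The lower control stood 5.29-fold above the highest oil value, and the mean fall was 8.55-fold (log2 difference -3.10, SE 0.32, adjusted p = 0.0105). The probe set is of the type whose probes are shared within a gene family, so related transcripts may contribute to it.

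A further 3 probe sets of that type, on chip B, fell along with Fabp5, but they carry no gene symbol and are given by their array identifiers. Msa.2433.0_f_at read 1402 and 1364 in the controls against 221, 208 and 125 (log2 difference -2.95, SE 0.26, adjusted p = 0.00369). Msa.18740.0_f_at read 1695 and 1551 against 411, 349 and 353 (log2 difference -2.13, SE 0.15, adjusted p = 0.00169). Msa.25284.0_f_at read 482 and 460 against 98, 53 and 63 (log2 difference -2.77, SE 0.37, adjusted p = 0.0370). In each of them the controls were close together and every oil value lay far below both. Of the 8 called probe sets 4 are of the family type, which makes up 23.5% of bright probe sets.

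The other 2 genes that fell were Neat1 and Anp32a. Neat1, the long noncoding RNA that scaffolds nuclear paraspeckles, read 1218 and 1269 in the controls and 394, 384 and 588 with the oils (log2 difference -1.48, SE 0.19, adjusted p = 0.0448). Anp32a, a nuclear phosphoprotein that inhibits protein phosphatase 2A, read 247 and 380 against 74, 62 and 77 on chip A (log2 difference -2.12, SE 0.26, adjusted p = 0.0370). All 3 oil values of Anp32a are under the brightness threshold of chip A (153.6), so it was tested only because its controls are high, and the same holds for Msa.25284.0_f_at on chip B (139.2). The other bright probe set of Anp32a, on chip B, did not show this, at 164 and 140 against 156, 168 and 127 (log2 difference -0.02), so the fall of Anp32a rests on 1 of its 2 probe sets.

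Both genes that rose encode enzymes of lipid or retinoid oxidation. Cyp4a10, the omega-hydroxylase of fatty acids and a classic PPAR-alpha target, read 321 and 349 in the controls and 894, 1566 and 1010 with fungal, fish and both oils. Its mean rise was 3.35-fold (log2 difference 1.75, SE 0.24, adjusted p = 0.0370), and the fish oil RNA was the highest. A second Cyp4a10 probe set was near background, at 15 and 20 against -6, 12 and -6, so the rise rests on 1 probe set. Aldh1a1, a cytosolic aldehyde dehydrogenase that makes retinoic acid from retinal, read 2225 and 2548 against 3917, 4274 and 4091. Its rise was smaller, 1.72-fold (log2 difference 0.78, SE 0.095, adjusted p = 0.0370), with the oil values close to each other and clear of both controls.

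Fabp5, Msa.2433.0_f_at and Msa.18740.0_f_at passed the test whichever of the 5 RNAs was left out. The other 5 did not. Cyp4a10 had an adjusted p of 0.154 without control 1, 0.0571 without control 2 and 0.0601 without the RNA of both oils. Aldh1a1 had 0.298 and 0.0974 without control 1 or control 2, 0.0565 without fungal oil and 0.073 without both oils. Neat1 had 0.298, 0.190 and 0.0565 without control 1, control 2 or fungal oil. Anp32a had 0.109, 0.162, 0.0565 and 0.0601 without control 1, control 2, fungal oil or both oils, and Msa.25284.0_f_at had 0.375 and 0.231 without control 1 or control 2. Without the intensity trend Fabp5 had 0.109 and Msa.2433.0_f_at 0.0546, which left Msa.18740.0_f_at as the 1 call, and over gene means Fabp5 had 0.0512. Without the brightness filter 0 of the 8 passed. None of the 8 reversed, but their oil and control values do not overlap, so leaving out 1 RNA could not reverse them.

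**Figure D2:**
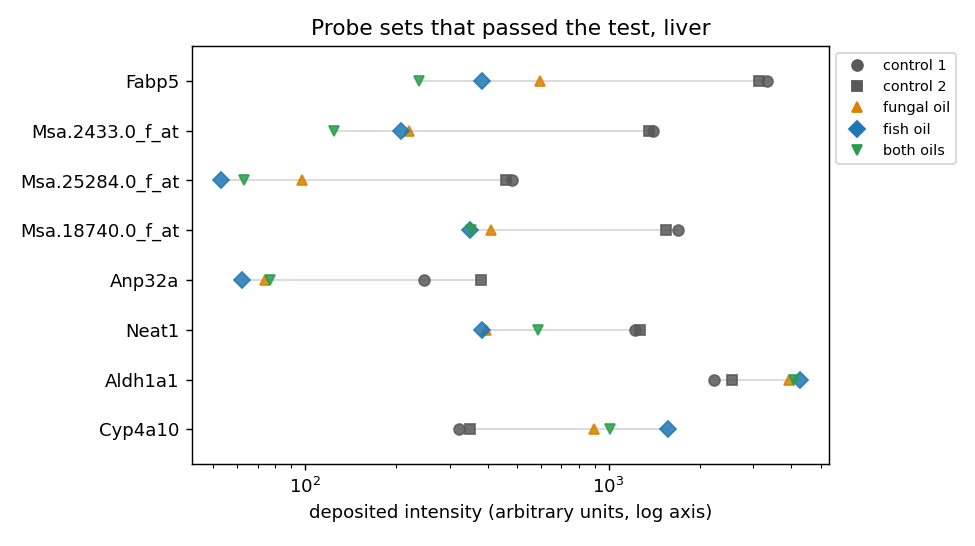
Deposited intensity (x axis, log scale) of the 8 probe sets that passed the test in each of the 5 liver RNAs; grey symbols are the controls and coloured symbols the oil RNAs. The oil and control values do not overlap in any row, and Msa.2433.0_f_at has the widest gap on this axis, from 221 to 1364.

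Genes of fatty acid synthesis lay mostly below the controls. Of 9 bright members of that list 8 lay below the control mean and 5 below both controls (Acly, Fasn, Elovl6, Gpam and Scd1), against 12.2% of all 1878 bright genes, and 0 of the 9 passed the test. Their median log2 difference was -0.34, against 0.01 over all bright genes, and it was -0.82 with both oils, -0.23 with fungal oil and -0.08 with fish oil.

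Acly, the ATP citrate lyase that supplies cytosolic acetyl-CoA, read 3118 and 3275 in the controls and 1568, 1754 and 878 with fungal, fish and both oils (log2 difference -1.25, SE 0.27, adjusted p = 0.143). Its probe set on chip B read 361 and 550 against 115, 64 and 51 (log2 difference -2.63, adjusted p = 0.0538). Both probe sets placed every oil RNA below both controls, with the RNA of both oils lowest. On chip B every oil value of Acly is under the brightness threshold (139.2), so that probe set was tested only because its controls are high. Fasn, the fatty acid synthase itself, read 5522 and 4906 against 2715, 4104 and 966 (log2 difference -1.24, SE 0.50, adjusted p = 0.422). With fish oil Fasn was within 1.2-fold of the lower control, so the group mean rests largely on the other 2 oil RNAs. Elovl6, which lengthens palmitate, read 618 and 714 against 284, 431 and 274 (log2 difference -1.04, SE 0.21, adjusted p = 0.119). Gpam, which starts triacylglycerol synthesis in mitochondria, read 1140 and 1228 against 683, 989 and 526. Scd1, the stearoyl-CoA desaturase, read 9754 and 9811 against 8749, 9493 and 5541. For Gpam and Scd1, as for Fasn, the fish oil value lay nearest the controls and the value with both oils farthest.

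With each diet as its own group, Acly (adjusted p = 0.00442), Fasn (0.00883), Elovl6 (0.0268), Scd1 (0.0301) and Gpam (0.0305) all passed. Their fold differences are the same in both fits. The spread among the oil RNAs is what separates the fits, and of these 5 genes it is widest for Fasn. With each diet as its own group, a gene's own error comes from the difference between the 2 controls alone. For Scd1 these were close, at 9754 and 9811, beside a fish oil value of 9493. Dgat2, which adds the last acyl chain of triacylglycerol, was the member above both controls, at 4885 and 4020 against 5190, 5012 and 4941. After quantile normalization it overlapped the controls.

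In cholesterol synthesis 4 of 5 bright members lay below the control mean. Hmgcs1 and Ebp, 2 of the 5, lay below both controls, against 12.2% of all bright genes. The median log2 difference was -0.21, with -0.34 for fungal oil, -0.25 for fish oil and 0.02 for both oils, and 0 of the 5 passed the test. Hmgcs1, the synthase of the HMG-CoA used for cholesterol, read 1506 and 1667 against 1039, 1328 and 933 (log2 difference -0.54, SE 0.15, adjusted p = 0.257). Ebp, a sterol isomerase, read 1341 and 1305 against 1228, 1198 and 1250. Hmgcs1 stood apart from both controls by 1.13-fold at its nearest and Ebp by 1.04-fold.

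**Figure D3:**
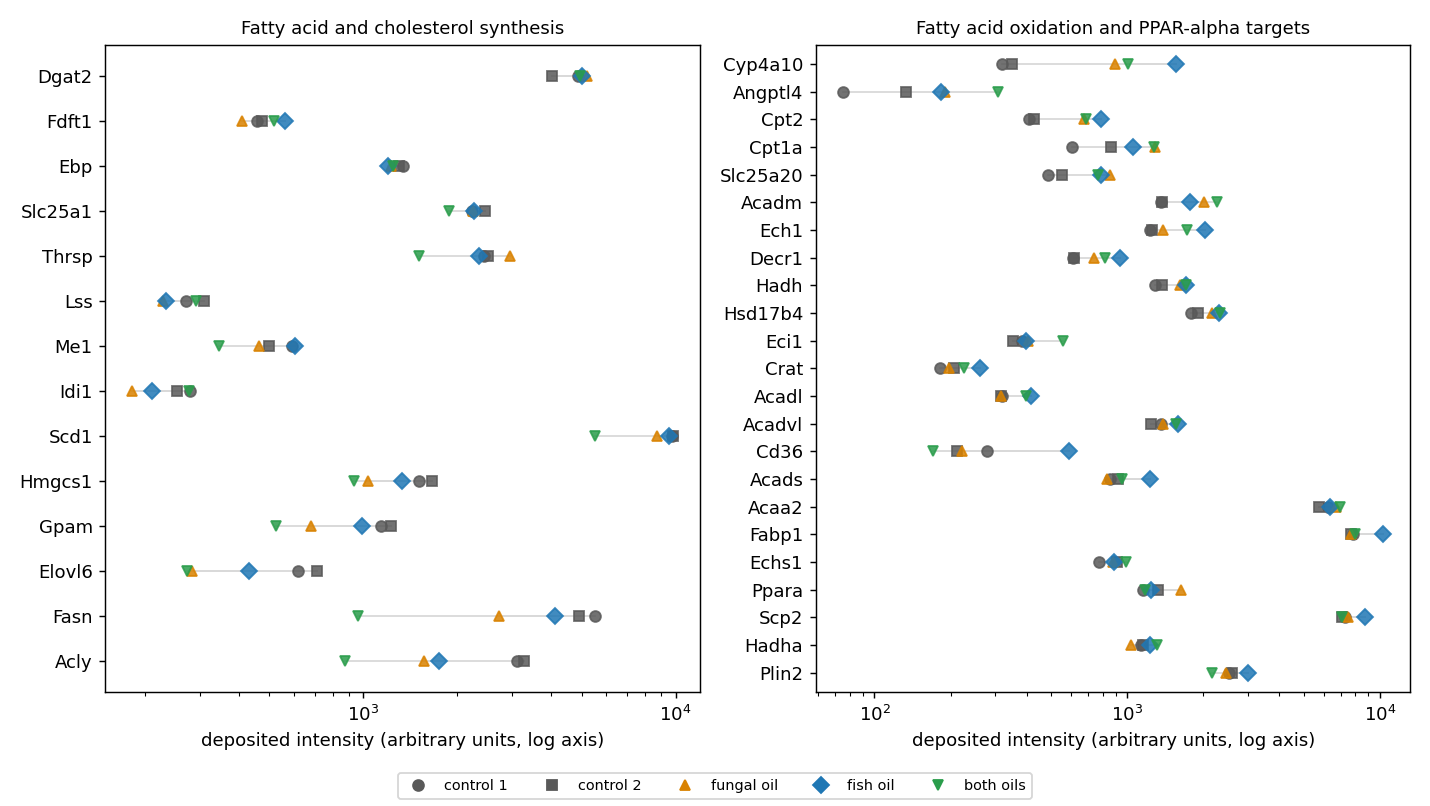
Deposited intensity (x axis, log scale) in each of the 5 liver RNAs for the 14 bright genes of fatty acid and cholesterol synthesis (left) and the 23 of fatty acid oxidation and PPAR-alpha targets (right), ordered by mean log2 difference. Acly, Fasn and Elovl6 have the oil RNAs to the left of the grey control symbols, and Cyp4a10, Angptl4 and Cpt2 have them to the right.

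Promoter sequences are shown for 2 members below both controls, from the fatty acid and cholesterol arms, and for 1 oxidation gene above both, because the first 2 belong to the SREBP target group and the third to the PPAR-alpha group. The sequences are RefSeq's for GRCm38.p6, run 5′ to 3′ on the gene's strand, and span 300 bases around the start. In Fasn and Hmgcs1 the capitals mark CCAAT on either strand (read as ATTGG on the other), the box bound by NF-Y, and in Hmgcs1 also TCACNCCAC, a sterol regulatory element. In Cpt1a they mark AGGTCA on either strand (TGACCT on the other), the half-site of nuclear receptors.
Fasn, chr11:120824498-120824797, minus strand: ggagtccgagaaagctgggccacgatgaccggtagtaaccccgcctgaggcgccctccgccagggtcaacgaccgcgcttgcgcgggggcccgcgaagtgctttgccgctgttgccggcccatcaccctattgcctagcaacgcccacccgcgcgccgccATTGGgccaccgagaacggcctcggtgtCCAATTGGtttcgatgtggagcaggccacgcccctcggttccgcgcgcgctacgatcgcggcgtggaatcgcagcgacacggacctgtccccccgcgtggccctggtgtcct
Hmgcs1, chr13:119690101-119690400, plus strand: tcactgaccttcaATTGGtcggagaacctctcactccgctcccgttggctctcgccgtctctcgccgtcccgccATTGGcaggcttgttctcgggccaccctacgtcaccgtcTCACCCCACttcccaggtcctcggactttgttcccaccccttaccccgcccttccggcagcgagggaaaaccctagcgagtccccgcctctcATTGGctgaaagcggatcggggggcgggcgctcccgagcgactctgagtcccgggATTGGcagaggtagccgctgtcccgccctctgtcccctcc
Cpt1a, chr19:3323051-3323350, plus strand: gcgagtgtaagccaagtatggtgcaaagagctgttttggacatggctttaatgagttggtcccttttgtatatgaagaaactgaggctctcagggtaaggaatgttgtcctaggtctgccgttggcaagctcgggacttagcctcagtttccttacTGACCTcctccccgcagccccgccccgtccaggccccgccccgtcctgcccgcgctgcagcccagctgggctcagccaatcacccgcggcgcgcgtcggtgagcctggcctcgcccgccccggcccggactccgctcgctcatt
The Fasn window holds CCAAT at 3 places, of which 2 overlap each other, and the Hmgcs1 window at 4, with 1 TCACNCCAC. Among all 32851 RefSeq promoters, 37.4% hold a CCAAT, 1.24% a TCACNCCAC and 16.3% an AGGTCA. Of the 7 synthesis genes below both controls 6 have a promoter there (not Scd1), and CCAAT was present in 4 (Acly, Ebp, Fasn and Hmgcs1), TCACNCCAC in Hmgcs1 and AGGTCA in 4 (Acly, Elovl6, Gpam and Hmgcs1). Of the 13 oxidation genes above both controls 8 have one, and AGGTCA was present in 3 of them (Acadm, Acadvl and Cpt1a). A match describes letters in this window, not a bound site.

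Genes of fatty acid oxidation and other PPAR-alpha targets lay above the controls almost throughout. Of 23 bright members 22 lay above the control mean and 13 above both controls, against 16.0% of all bright genes. The median log2 difference was 0.23, with 0.16 for fungal oil, 0.38 for fish oil and 0.32 for both oils. Only Cyp4a10 of the 23 passed the test, and after quantile normalization 20 lay above the mean and 11 above both controls.

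The 3 members that move acyl groups into mitochondria all lay above both controls. Cpt2, the inner-membrane carnitine palmitoyltransferase, read 408 and 428 in the controls and 673, 791 and 690 with the oils (log2 difference 0.78, SE 0.11, adjusted p = 0.0526). Cpt1a, the outer-membrane transferase that sets the rate of entry, read 604 and 864 against 1285, 1058 and 1272 (log2 difference 0.73, SE 0.17, adjusted p = 0.164). Slc25a20, the carnitine-acylcarnitine carrier between them, read 487 and 550 against 855, 790 and 767 (log2 difference 0.63, SE 0.11, adjusted p = 0.0768). All 3 oil diets gave similar values for Cpt2 and Slc25a20, and a second Slc25a20 probe set also separated, at 196 and 263 against 338, 410 and 289.

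Among enzymes of the oxidation spiral some lay above both controls and others overlapped. Acadm, the medium-chain acyl-CoA dehydrogenase, read 1357 and 1371 against 2014, 1774 and 2261 (log2 difference 0.56, adjusted p = 0.169), but its second probe set overlapped, at 828 and 969 against 1164, 940 and 1369. Ech1 and Decr1, which handle the double bonds of unsaturated fatty acids, read 1226 and 1252 against 1388, 2031 and 1731, and 608 and 616 against 736, 935 and 816. In both of these auxiliary enzymes fish oil was highest and fungal oil lowest of the oil RNAs. Hadh, Hsd17b4, Acadvl, Eci1 and Acaa2 also lay above both controls, with log2 differences of 0.33, 0.29, 0.22, 0.28 and 0.15. Hadha (1136 and 1160 against 1040, 1235 and 1315), Acads (855 and 919 against 831, 1235 and 956), Acadl and Echs1 overlapped. Angptl4, a secreted inhibitor of lipoprotein lipase, was dimmer, at 75 and 133 against 191, 184 and 307 (log2 difference 1.15, SE 0.33, adjusted p = 0.260). Cyp4a31, a paralogue of Cyp4a10 measured by a family probe set, read 132 and 129 against 214, 193 and 405. Both controls of Angptl4 and of Cyp4a31 are under the brightness threshold, so these genes were tested only because their oil values are high. Ppara itself overlapped, at 1158 and 1325 against 1626, 1243 and 1175.

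Of 10 bright lipoprotein genes 1 lay above both controls and 2 below, close to the shares of all bright genes (16.0% and 12.2%). Apoa4, an apolipoprotein of triglyceride-rich particles, read 1987 and 2034 in the controls and 781, 629 and 117 with fungal, fish and both oils. Its mean difference was among the widest of named genes (log2 difference -2.38, SE 0.74, adjusted p = 0.290), yet the oil RNAs were spread widely, with the RNA of both oils far below the others. With each diet as its own group Apoa4 passed (adjusted p = 0.00100). Apoc2, the cofactor of lipoprotein lipase, read 3233 and 3165 against 2511, 2143 and 2005 (log2 difference -0.53, adjusted p = 0.164). Apoe lay above both controls by a margin of 1.01-fold. Of 7 bright genes of fatty acid binding and uptake, Slc27a2, a very long-chain acyl-CoA synthetase, lay above both controls (2926 and 3006 against 3464, 3472 and 3302) and Fabp5 and Fabp2 below. Fabp1, the main fatty acid binding protein of hepatocytes, overlapped, at 7849 and 7694 against 7657, 10333 and 7951.

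All 13 bright cytochromes P450 of families 1 to 3, the main oxidases of drugs and steroids, lay above the control mean, and 7 lay above both controls, against 16.0% of all bright genes, with a median log2 difference of 0.22. None passed the test; after quantile normalization 10 lay above the mean and 6 above both controls. The 3A enzymes had the widest differences. Cyp3a16 read 1398 and 1478 against 2805, 2835 and 2282 (log2 difference 0.87, SE 0.14, adjusted p = 0.0526), and on chip A 861 and 882 against 1480, 1546 and 1308. Cyp3a11 read 4935 and 4618 against 7297, 8429 and 6542 (log2 difference 0.63, SE 0.13, adjusted p = 0.104), and its second probe set 4072 and 4319 against 7003, 6383 and 5249. The 4 probe sets are of the family type and their genes are close paralogues, so they cannot be counted as separate observations. Cyp3a13 (531 and 686 against 790, 846 and 825) and Cyp2c29 (5191 and 4996 against 6559, 7384 and 6107) lay above both controls as well. Cyp2e1 and Cyp1a2, among the brightest, overlapped.

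Haem synthesis had opposite ends. Of its 5 bright genes 3 lay above both controls and 1 below, against 16.0% and 12.2% of all bright genes. The remaining gene, Urod, overlapped, at 163 and 175 against 204, 237 and 174, and 0 of the 5 passed the test. Alas1, the housekeeping and rate-limiting enzyme that liver uses to make haem for cytochromes P450, read 1299 and 1177 in the controls and 4573, 2265 and 3355 with fungal, fish and both oils. That is 2.64-fold on average (log2 difference 1.40, SE 0.26, adjusted p = 0.0767), with fungal oil highest and fish oil lowest. Alad (4053 and 3062 against 4713, 5743 and 4682) and Cpox (871 and 767 against 1128, 1214 and 1223), which act later in the pathway, also lay above both controls, though a second Cpox probe set overlapped. Alas2, the erythroid isoenzyme and a marker of red cell precursors, lay below both, at 1081 and 990 against 549, 612 and 664 (log2 difference -0.77, SE 0.15, adjusted p = 0.0974). The summed level of 7 blood and erythroid markers was 14144 and 12022 in the controls and 11844, 16295 and 8799 with the oils, which overlaps, and its part in the Alas2 values was not tested. Fewer cells of a type and less RNA per cell cannot be told apart in these tissue RNAs.

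In bile acid synthesis and transport 4 of 8 bright genes lay above both controls and 1 below, against 16.0% and 12.2% of all bright genes, with a median log2 difference of 0.25. Cyp7b1, the oxysterol hydroxylase of the alternative pathway, read 783 and 793 against 1097, 1063 and 1217 (log2 difference 0.51, SE 0.097, adjusted p = 0.104). Abcb4, the canalicular phospholipid exporter, read 467 and 499 against 601, 721 and 675. Nr1h4, the bile acid receptor FXR, read 261 and 288 against 376, 300 and 401, while Nr0b2, the repressor SHP that FXR induces, lay below at 1003 and 860 against 784, 758 and 604. Margins were 1.20-fold for Abcb4, 1.04-fold for Nr1h4 and 1.10-fold for Nr0b2. Of 7 bright eicosanoid enzymes, which act on arachidonate and its products, all lay above the control mean and 3 above both controls (Cyp2c29, Ephx2 and Cbr1), against the same 16.0%; the last 2 cleared the controls by 1.01-fold and 1.00-fold.

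Clock genes had the highest list median, 0.56, but over only 5 bright genes and not evenly among the oils. Dbp, a clock output transcription factor, read 176 and 162 in the controls and 581, 174 and 747 with fungal, fish and both oils, so the fish oil RNA was at the control level. Upp2, a uridine phosphorylase, read 806 and 812 against 2044, 687 and 1779, so fish oil was below both controls and the other 2 oil RNAs above. Bhlhe40 (248 and 224 against 365, 263 and 440) and Per1 (175 and 157 against 248, 207 and 196) lay above both controls. The list medians were 0.63 with fungal oil, 0.04 with fish oil and 0.90 with both oils.

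In the lists of this paragraph, counts above and below both controls stand against 16.0% and 12.2% of all bright genes. All of these lists except the conjugating enzymes held members on both sides. Of 19 bright genes of the urea cycle and amino acid breakdown 9 lay above both controls and 1, Got1, below (1051 and 900 against 798, 656 and 467), with a median log2 difference of 0.12. Tdo2, which opens tryptophan breakdown, read 3917 and 3867 against 5238, 5076 and 5867 (log2 difference 0.47, adjusted p = 0.149), though its second probe set overlapped. Mat1a, which makes S-adenosylmethionine, read 2747 and 2949 against 3915, 3840 and 3660 (log2 difference 0.42, adjusted p = 0.119). The 14 conjugating enzymes had 5 above and 0 below, the 16 antioxidant genes 5 above and 1 below, and the 11 genes of gluconeogenesis and glycolysis 3 above and 1 below. Among 24 plasma protein genes 4 lay above and 3 below, and among 18 acute phase and complement genes 4 above and 2 below. Respiratory chain genes were 13 above and 5 below of 35, but 7 and 7 after quantile normalization; Uqcrc2, a core subunit of complex III, had the widest difference (313 and 381 against 516, 559 and 595). Chaperones (4 above and 4 below of 24), ribosomal proteins (2 and 4 of 33) and the proteasome (2 and 1 of 24) had medians of 0.00, -0.02 and 0.05. Immediate early and growth response genes (2 above and 1 below of 8) and nuclear receptors and cofactors (2 and 1 of 7) had medians of 0.07 and 0.11. After quantile normalization some of these balances shifted. Gluconeogenesis and glycolysis then had 1 above and 2 below, plasma proteins 3 and 4, chaperones 2 and 4, and ribosomal proteins 1 and 7. The urea cycle list (8 and 1), conjugating enzymes (4 and 1) and antioxidant genes (4 and 1) stayed mainly above. No member of these lists passed the test.

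**Figure D4:**
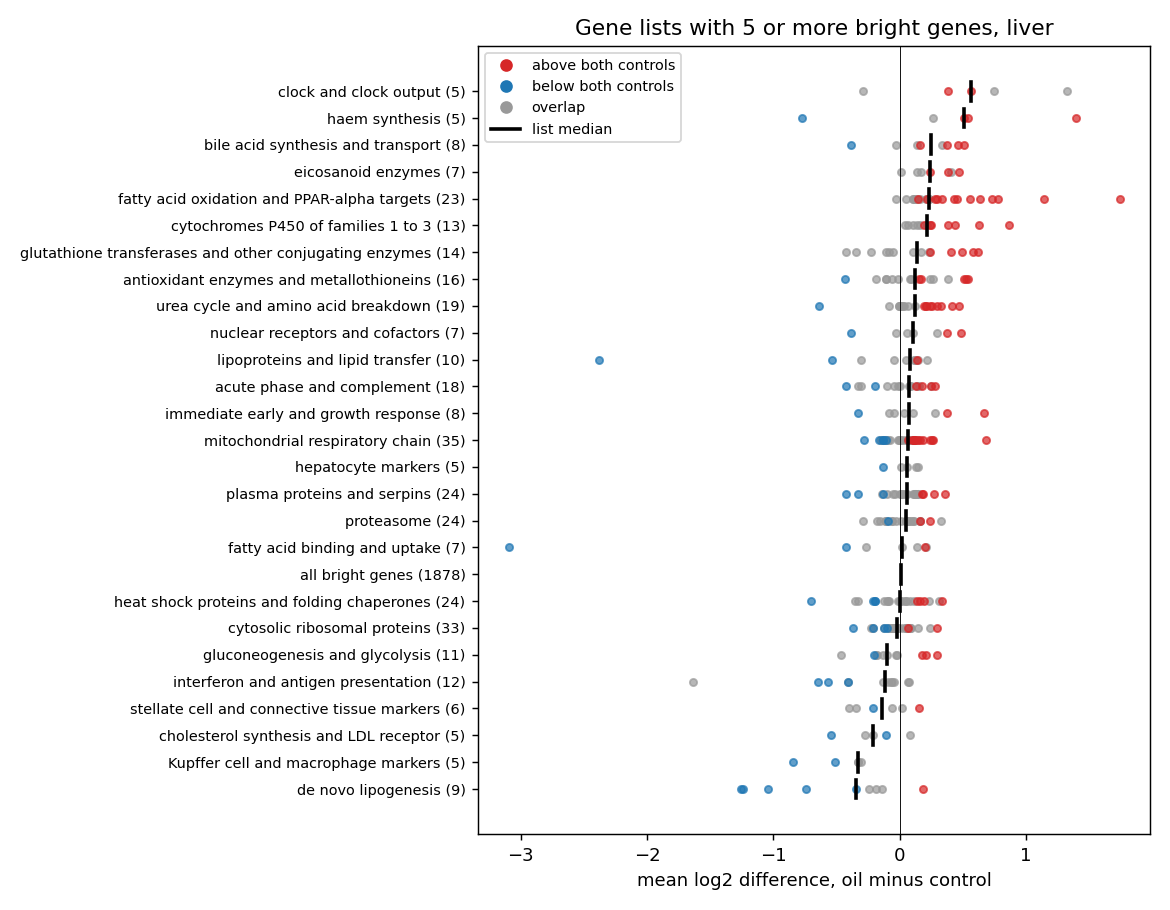
Mean log2 difference (x axis, oil minus control) of each bright gene in the lists that have 5 or more, with the number of bright genes in brackets; red and blue points lie above and below both controls, grey points overlap, and black bars are list medians. Fatty acid synthesis has the lowest median, -0.34, and fatty acid oxidation has 13 red points and 0 blue.

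Genes outside the lists had some of the wider gaps. Above both controls, Mpdu1, needed for the use of dolichol-linked mannose, read 62 and 181 against 598, 543 and 415 (log2 difference 2.27, SE 0.41, adjusted p = 0.0767). Its controls differed from each other more than its oil values did. Ctse, the protease cathepsin E, read 249 and 213 against 460, 504 and 470 (log2 difference 1.05, SE 0.17, adjusted p = 0.0538), with all 3 oils alike. Tsc2, a brake on mTOR signalling, read 54 and 90 against 249, 177 and 205, but its dimmer probe set on chip A overlapped (82 and 72 against 104, 92 and 79). Cbx2, Ak4, Trav12d-2, Ppp2r5d and 1810058I24Rik also left gaps of 1.40-fold to 1.61-fold, though a second bright probe set of 1810058I24Rik overlapped (148 and 177 against 233, 124 and 148). Dmwd read 136 and -31 against 221, 288 and 233, with 1 control below background. Both controls of Tsc2, Cbx2, Ak4, Trav12d-2 and Dmwd are under the brightness threshold of their chip. These genes were tested only because their oil values are high.

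Below both controls, Plk1, a kinase of mitosis, read 402 and 370 against 156, 185 and 132 (log2 difference -1.30, SE 0.18, adjusted p = 0.0526). Aqp8, a water channel of the bile canaliculus, read 741 and 815 against 352, 364 and 219 (log2 difference -1.35, SE 0.23, adjusted p = 0.0767). The lower control stood 2.00-fold above the highest oil value for Plk1 and 2.04-fold for Aqp8. Atf5, a transcription factor of the stress response, read 875 and 864 against 505, 563 and 281. Samsn1 (615 and 484 against 121, 217 and 270) and Sertad2 (796 and 564 against 167, 309 and 314) had fungal oil lowest. Stip1, which links the chaperones Hsp70 and Hsp90, read 264 and 259 against 112, 155 and 124. Denn2b, Dpm2 and Abcf1 left gaps of 1.61-fold, 1.55-fold and 1.45-fold. Every oil value of Denn2b and Abcf1 is under the brightness threshold, so these 2 were tested only because their controls are high. None of these named genes passed.

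Some further genes did not pass in the test of the 3 oils as 1 group but did with each diet as its own group, and 3 are given here, chosen after their values were seen. Elovl2, the elongase that lengthens arachidonate and other long polyunsaturated fatty acids, read 2853 and 3167 in the controls and 2291, 1780 and 1690 with the oils (log2 difference -0.66, SE 0.081, adjusted p = 0.0301 in that fit). Retsat, which saturates retinol, read 733 and 723 against 970, 1485 and 1250 (log2 difference 0.74, SE 0.087, adjusted p = 0.0283). Agxt, the peroxisomal enzyme that detoxifies glyoxylate, read 2400 and 2296 against 1555, 1584 and 1746 (log2 difference -0.53, SE 0.075, adjusted p = 0.0448). In all 3 the oil values lay on 1 side of both controls, and Agxt had the evenest oil values.

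Of the markers of Kupffer cells, the resident phagocytes of liver, and other macrophages, the 5 bright ones all lay below the control mean. Mpeg1 (705 and 802 against 657, 211 and 529) and Cd5l (224 and 228 against 147, 127 and 214) lay below both controls, the other 3 overlapped, with Lyz2 above both controls with fish oil, and the median log2 difference was -0.33. Over all 15 measured, dim ones included, 13 lay below the control mean, 8 below both controls and 0 above both, against 8.09% below and 7.43% above over all 13069 probe sets; several of the 8, such as Adgre1, Msr1 and Csf1r, had values near or under the floor. The summed level of the 15, of which 2 were below the floor on every array, was 2940 and 2912 in the controls and 2090, 1812 and 2174 with the oils, without overlap. Clec4f, a lectin that defines Kupffer cells, is just under the brightness threshold and read 180 and 254 against 132, 90 and 93, and Marco was at background in all 5 RNAs. Endothelial markers were also below the controls in sum: the level of 9 was 2299 and 2117 against 1611, 1583 and 1797. Of the 9, 6 lay below the control mean, 2 above it and 4 below both controls, against the same 8.09%. Eng made up the largest part of the sum, at 1378 and 1326 against 1068, 899 and 1024 (log2 difference -0.44, adjusted p = 0.275). Kdr, the other bright one, overlapped, at 404 and 326 against 166, 314 and 414. Summed hepatocyte markers were 47242 and 41515 against 45361, 51682 and 44935, and those of stellate cells 3153 and 3217 against 3160, 3441 and 2987, both overlapping. The sums of bile duct, lymphocyte and neutrophil, gut and pancreas, and adipocyte markers overlapped too. Only bright markers entered the test, and no bright Kupffer cell, endothelial, hepatocyte or stellate cell marker passed it.

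Of 12 bright genes of interferon response and antigen presentation 10 lay below the control mean and 3 below both controls (Cd74, Psmb8 and Psmb9), with 0 above both, against 12.2% below and 16.0% above over all bright genes. Cd74, the invariant chain of class II antigen presentation, read 555 and 753 against 417, 414 and 410 (log2 difference -0.64, SE 0.18, adjusted p = 0.208), with nearly equal oil values. Psmb8 and Psmb9, immunoproteasome subunits, read 442 and 440 against 342, 225 and 343, and 365 and 352 against 287, 217 and 316. The summed macrophage markers were also lower with every oil, and their part in these values was not tested. The class I genes H2-K1 and H2-D1, and B2m, overlapped.

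Hippocampus of mice on the same diets, 1 RNA per diet on chip B, was used to ask where the liver response differed. The difference of the oil effect between tissues passed the limma test for 10 of 1636 probe sets bright in liver (0.611%). Fabp5 read 807 in the hippocampus control and 783, 823 and 823 with fungal, fish and both oils, so the control lay among the oil values, and the oil effect in liver minus that in hippocampus was -3.10 on the log2 scale (SE 0.50, adjusted p = 0.0401). The unnamed Msa.18740.0_f_at (590 against 575, 680 and 572), Msa.2433.0_f_at (362 against 391, 452 and 519) and Msa.25284.0_f_at (301 against 263, 282 and 306) also lacked the fall in hippocampus, with differences of -2.17, -3.27 and -2.68. Dgat2 differed by 1.14 through the hippocampus, where it read 542 in the control and 280, 284 and 275 with the oils. The remaining 5 of the 10, Acly on chip B among them (32 against 71, 60 and 55 in hippocampus), are bright in liver but dim in hippocampus, so no size is drawn from them. Over probe sets bright in both tissues 5 of 1083 passed (0.462%). The hippocampus has a single control RNA, so the spread of that control cannot be measured and is assumed to be that of the other groups. The Dgat2 difference in particular rests on that 1 RNA. Cyp4a10 was at or near background in hippocampus, at 12 against 6, 35 and 7, and was not among the 10 (adjusted p = 0.797). Neither was Alas1 (difference 1.31, SE 0.40, adjusted p = 0.379), which read 556 in the hippocampus control and 538, 617 and 618 with the oils.

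**Figure D5:**
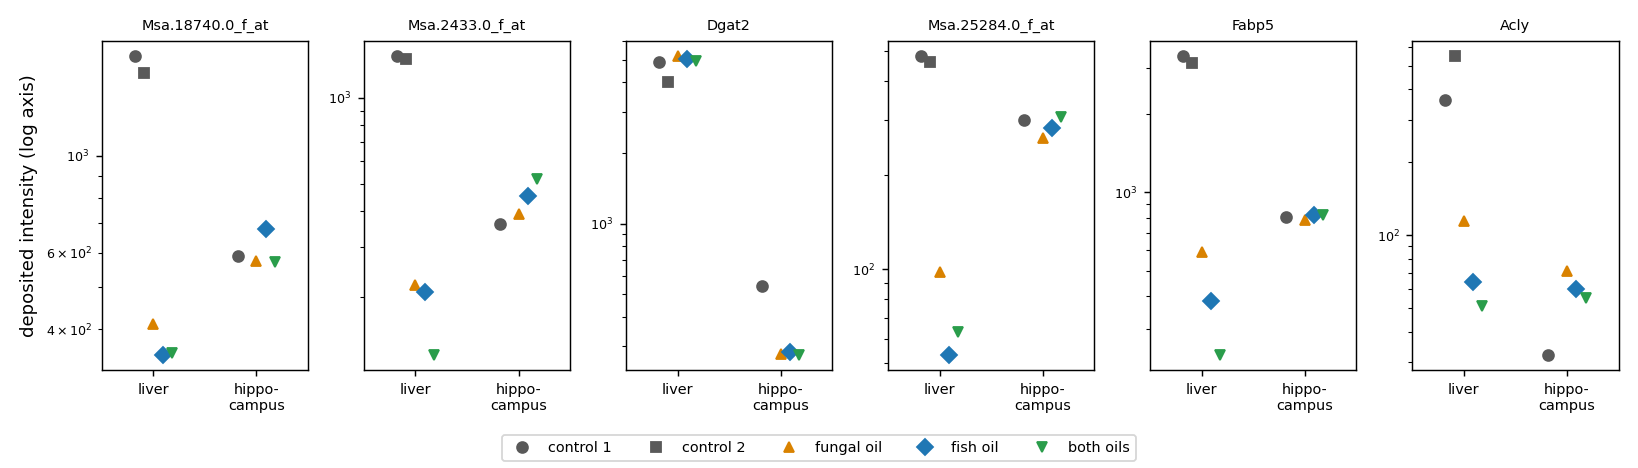
Deposited intensity (y axes, log scale, a separate range for each panel) of 6 of the 10 chip B probe sets whose oil effect differed between liver and hippocampus, with 1 symbol per RNA. Fabp5 and the 3 unnamed probe sets have the liver controls far above the liver oil RNAs and no such gap in hippocampus.

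The non-overlap rule is strict in direction and lax in size. Just inside it, Uqcr11 read 2607 and 2676 in the controls and 2605, 2454 and 2347 with the oils, and just outside, Endog tied at 641 between a control and fungal oil. At the brightness threshold, Gcsh was just inside on chip A with a mean of 153.6 and Ssb just outside with 153.4, and on chip B Bmp1 was inside with 139.6 and Adam28 outside with 137. A second bright probe set gave a partial check. Of 47 genes above both controls that have one, it lay above both in 20, overlapped in 27 and lay below both in 0, and of 35 genes below both it lay below in 17, overlapped in 18 and lay above in 0. Its mean difference had the same sign in 41 of the 47 and 31 of the 35.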

How the data were processed

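The arrays are Affymetrix Mu11K chips (A and B). The authors deposited 1 whole-number intensity per probe set, negatives included; the software and scaling are not stated in these sources. Each liver array had a mean of 150.3 to 150.5 after 2% was trimmed at each end, so intensities were used as deposited, with a floor of 15 (0.1 of that mean), and log2 taken. Symbols came from the platform annotation (5541 of 6529 probe sets on chip A and 2001 of 6540 on chip B have 1 symbol); the brightest probe set represents a gene. limma 3.58.1 in R 4.3.3 (lmFit, eBayes with intensity trend) compared 3 oil with 2 control RNAs per chip, adjusting p-values over both chips' 3269 bright probe sets; tissues were compared in 1 fit of 9 chip B arrays. The fit was tested on simulated data.

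Named genes are called genes, then those with the widest gap, to 15 each way, plus list members that do not overlap and genes at the thresholds. Members and lists were chosen with earlier results of these data known.

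Control probe sets were left out. Alternatives were normalization, floor, filter, design and each RNA left out. Array number limits precision.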

Additional observations from a re-analysis of the deposited data

Results flagged for a closer look

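For 10 chip B probe sets the oil effect differed between liver and hippocampus in a limma test of the difference itself (adjusted p under 0.05), given as liver minus hippocampus on the log2 scale. Of these, 5 were bright in both tissues: Fabp5 (-3.10), Msa.2433.0_f_at (-3.27), Msa.25284.0_f_at (-2.68) and Msa.18740.0_f_at (-2.17), whose liver fall is described above, and Dgat2 (1.14), which differed through lower oil values in hippocampus. The other 5 were dim in hippocampus, so their log2 differences are not taken as sizes of effect. The hippocampus control is 1 RNA. Acly on chip B (-3.57) was far lower with oil in liver. Dcc (2.59), Asgr2 (2.30) and Msa.13027.0_f_at (1.84) had a hippocampus control of 77, 64 and 49 and oil values of 21 or less, so the floor of 15 sets these differences in large part. Fn1 (-1.71) read 34 in the hippocampus control and 126, 98 and 136 with the oils, and overlapped in liver.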

How the results depend on the processing

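The count of called probe sets, 8, moved with most choices. It was 4 with the filter at the chip median, 1 without the intensity trend (Msa.18740.0_f_at), 2 over gene means, 14 with p-values adjusted per chip, 14 on chip B alone, 0 on chip A alone (199 at an unadjusted p under 0.05, lowest limma adjusted p 0.0597) and 56 with each diet as its own group. Leaving out 1 RNA gave 4 to 17. It was 9 after quantile normalization, which includes the 8, and 8 with either other floor. Without a filter on dim probe sets it was also 8, but 0 of them are among the main 8. The non-overlapping count, 894, became 1600 at the median filter, 2028 without a filter, 482 on chip A, 412 on chip B, and 1298 to 1640 with 1 RNA left out, since more probe sets are tested, fewer are tested, or fewer values must lie on 1 side. After quantile normalization 50.8% of the non-overlapping lay above, against 55%. The tissue count, 10, was 5 over probe sets bright in both tissues. Over 156 genes and probe sets and 1716 alternative values, 1658 kept direction and side of the threshold, 29 lost the call, 29 gained it and 0 reversed. Where oil and control values do not overlap, leaving out 1 RNA cannot reverse the direction. A change of design or of intensity trend leaves the difference itself unchanged. For these settings the lack of reversals was therefore fixed in advance. Signal over background limits dim probe sets. No paired analysis was possible because only the control group has more than 1 liver RNA.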
